A study of Solanum lycopersicum with 9 samples.

Results

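Genes that control flowering were followed across the shoot apex of tomato seedlings that were still making leaves. The 6 genes were taken by their gene identifiers from a table of 34866 genes: both genes named FD (Solyc02g083520 and Solyc02g061990), SELF PRUNING (SP, Solyc06g074350), TERMINATING FLOWER (TMF, Solyc09g090180), JOINTLESS (J, Solyc11g010570) and FALSIFLORA (FA, Solyc03g118160). Tissue of the central zone (CZ) and the peripheral zone (PZ) of the shoot apical meristem (SAM) and of a leaf primordium (LP) was cut out by laser microdissection and sequenced as 3 libraries per zone, 9 in all, numbered within each zone (CZ1, for example). All zones came from seedlings of the line M82 SP+, aged 12 to 14 days and kept at 11 h light and 13 h dark, with no treatment, and each library pooled 3 cryosections of 10 µm. SP+ denotes a working allele of SELF PRUNING, which the line M82 itself lacks, so all groups carry it. The zones were chosen by their chlorophyll fluorescence and LP tissue was taken from the lower side of the primordium only. The study describes the libraries of a zone as biological replicates, and which seedlings each pooled is not given in the sources used here, so zones may share plants.

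In flowering plants, leaves send a mobile protein, florigen, to the SAM, where it binds 14-3-3 proteins and the bZIP transcription factor FD and turns on genes of the flower. Proteins of the TERMINAL FLOWER 1 kind, to which SP belongs, compete with florigen for the same partners and keep the shoot growing. Acting beside them in tomato are TMF, which holds back the switch to a flower, J, a MADS-box factor of the SVP group known for the joint of the flower stalk and for keeping the inflorescence from turning back to leaves, and FA, the LEAFY factor of tomato, which gives a meristem its floral identity.

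The values are normalized counts, in which the reads of a gene are divided by a factor of its library. Reads could be recovered from them, and the libraries held 40286 to 144665 reads on genes. A gene with 0 reads may have had up to 3, which is a normalized count of 0.865 in the deepest library (CZ1) and 3.28 in the shallowest (LP3), and this limit covers counting error only. Of the 6 genes, both FD genes, J and FA had reads in all 9 libraries, TMF in 8 and SP in 4. Genes that stayed below 6 in every library were not tested between zones, which left 4044 genes. These include 5 of the 6 genes, all but SP. The FD gene Solyc02g061990, TMF and FA reached this level in 4 or fewer libraries, so they were tested only because they were high there.

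**Figure D1:**
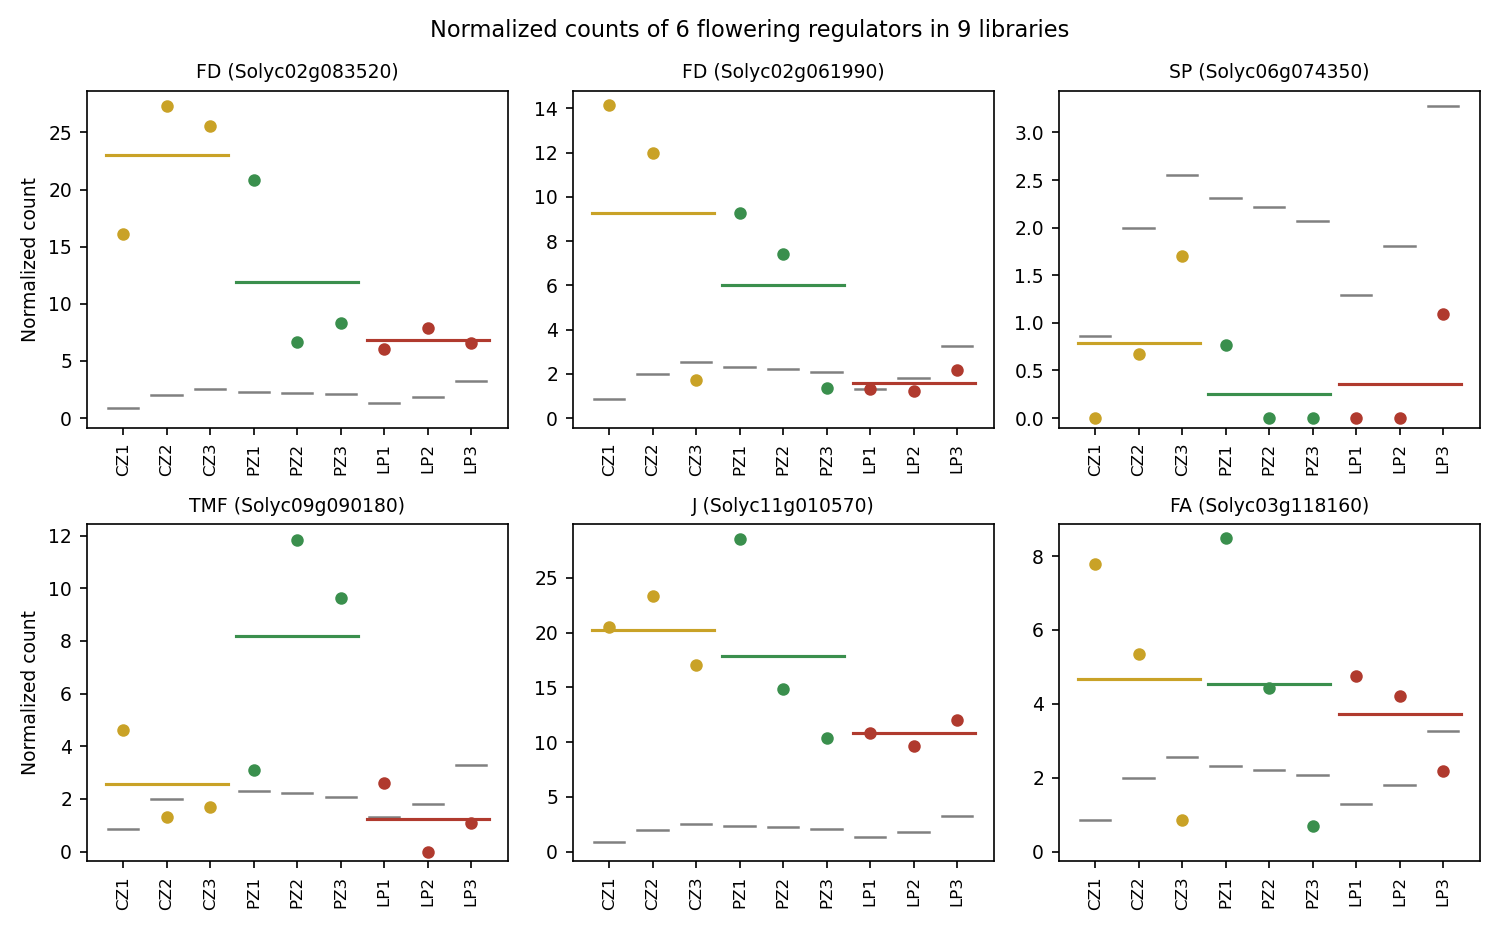
Normalized counts of each gene (vertical axes, each with its own scale) in the 9 libraries (horizontal axes, CZ in yellow, PZ in green, LP in red). Points are libraries, coloured lines are zone means, and short grey lines mark the value of 3 reads in that library. The FD gene Solyc02g083520 lies between 16.15 and 27.34 in CZ and between 6.05 and 7.85 in LP, while no SP point lies above its grey line.

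Transcripts of the FD gene Solyc02g083520 were highest on average in the CZ and fell from CZ to LP. Both FD genes are in a list of developmental genes that the study chose on these samples by their change between zones, so their direction is not independent evidence. The study reported both as lower in LP than in CZ, and used quantitative PCR for part of its changed genes. Solyc02g083520, which encodes a bZIP factor of the florigen pathway, lies on chromosome 2 from 46887881 to 46889005 (tomato genome SL2.50). In normalized counts it was at 16.15, 27.34 and 25.52 in the CZ libraries. In the PZ it was 20.82, 6.66 and 8.28. In the LP it was 6.05, 7.85 and 6.55. Every LP library was thus below every CZ library, and the PZ libraries were uneven, with PZ1 among the CZ values, PZ2 among those of LP and PZ3 just above them. In reads per 100000 reads on genes, PZ1 had 46.2 (95% Clopper-Pearson interval 30.5 to 67.2), PZ2 had 14.3 (6.54 to 27.2) and PZ3 had 18.0 (9.31 to 31.5). The interval of PZ1 lay apart from that of PZ2 and overlapped that of PZ3.

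The CZ mean of Solyc02g083520 was 23.0 ± 6.0, the PZ mean 11.9 ± 7.75 and the LP mean 6.82 ± 0.929 (SD, n = 3), so that LP was 3.37-fold lower than CZ. The zones were tested by limma, fitted to log2(normalized count + 1) of all genes tested, and a call needed a Benjamini-Hochberg adjusted p of at most 0.05 and a 1.5-fold change. Between LP and CZ the log2 fold change was −1.59 (standard error 0.45, 95% interval −2.46 to −0.72, limma adjusted p = 0.0293), which is a call. It was the 1 call among the 5 genes tested, where limma called 1.43% of all 4044 genes between LP and CZ and 0.247% as lower in LP. DESeq2 on the recovered reads also called it (adjusted p = 0.0482), and edgeR did not (adjusted p = 0.0659). For a single gene, an exact permutation test of 3 against 3 libraries gave its smallest possible value (two-sided p = 0.1). Between PZ and CZ the log2 fold change was −1.02 (limma adjusted p = 0.701), and between LP and PZ it was −0.57 (limma adjusted p = 0.822), neither of them a call.

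The call depended on single libraries and on the spread it was tested against. It was lost without CZ2, CZ3, LP1 or LP3 (limma adjusted p = 0.181, 0.242, 0.134 and 0.0786), and the log2 fold change without any 1 library stayed between −1.82 and −1.45. limma took the spread of a gene wholly from genes of like abundance, and with the gene's own spread (an alternative added after seeing the data) the adjusted p was 0.482. With that setting 0 of all genes tested were called between LP and CZ, against 58 in the reported analysis, so its loss is not particular to this gene. The call was also lost with no filter on low values (limma adjusted p = 0.275). Over the settings plotted here the adjusted p ran from 0.0143 to 0.482.

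**Figure D2:**
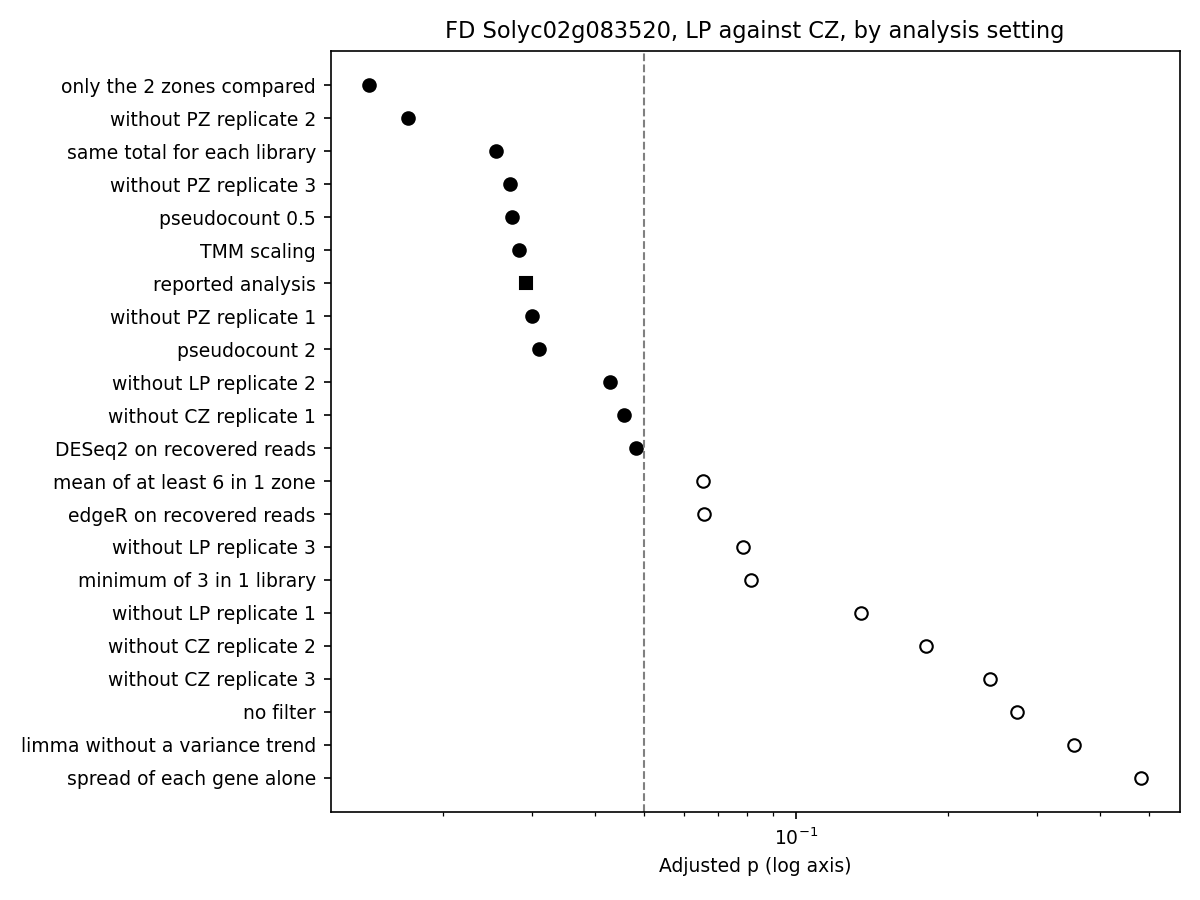
Adjusted p of the FD gene Solyc02g083520 between LP and CZ (horizontal axis, log scale) under the reported analysis (square) and 21 alternatives (circles), with a dashed line at 0.05. Filled symbols are calls. The call was made in 11 alternatives and lost in 10.

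Markers of meristem and of leaf, the leaf ones as sums, lay apart in LP from the meristem zones. STM in PZ2, however, was near its LP values. All of them, green tissue markers included, are in lists that the study chose on these samples. STM, which keeps cells of the meristem undifferentiated, was at 9.81, 4.67 and 17.01 in CZ and at 1.3, 0.6 and 1.09 in LP, a fall (log2 fold change −2.39, limma adjusted p = 0.0184). The boundary gene CUC2 ranged from 7.66 to 20.01 in CZ, from 15.42 to 18.51 in PZ and from 2.59 to 6.55 in LP. The summed counts of the 2 abaxial leaf markers, YABBY1 and YABBY3, ranged from 2.55 to 17.59 in CZ, from 13.79 to 22.95 in PZ and from 26.34 to 46.97 in LP. The 4 markers of green tissue (2 RBCS genes, LHCB2.4 and LHCA4) summed to 51.35 to 167.39 in CZ, 89.44 to 144.82 in PZ and 195.52 to 309.17 in LP. Single genes within the sums overlapped, as RBCS Solyc02g085950 did with 79.36 in CZ2 and 62.76 in LP2. All 8 markers had reads in every library. Between LP and CZ limma called 5 of them as higher and 1 as lower in LP. It did not call CUC2 (limma adjusted p = 0.0745) or YABBY3 (limma adjusted p = 0.128). Between LP and PZ it called 2, the RBCS genes, and between PZ and CZ none. In the PZ, STM was at 12.34 in PZ1 and at 1.48 and 4.83 in PZ2 and PZ3. PZ2 held 2 STM reads and LP1 held 3. Their counting intervals, 0.385 to 11.5 and 0.635 to 9.01 reads per 100000, overlapped. STM was high in the same PZ library, PZ1, as the FD gene Solyc02g083520. The part of such tissue differences in the values of the flowering genes was not tested. In dissected tissue, fewer cells with a transcript and less transcript per cell cannot be told apart.

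The other FD gene, Solyc02g061990, lies 13.3 Mb away on the same chromosome, from 33560595 to 33562144. The CZ libraries held normalized counts of 14.14, 12.0 and 1.7. The PZ libraries held 9.25, 7.4 and 1.38. The LP libraries held 1.3, 1.21 and 2.18. CZ1, CZ2, PZ1 and PZ2 were therefore high, and the third library of both meristem zones lay at the level of the LP. CZ1 had 33.9 reads per 100000 (Clopper-Pearson interval 25.1 to 44.8) and CZ3 had 3.87 (0.469 to 14.0). If each read stands for its own molecule, this difference was more than counting error. STM was at its highest in CZ3, the CZ library with little of this FD transcript. CUC2 (7.66), YABBY1 (1.7) and YABBY3 (0.85) were in CZ3 at their lowest among the CZ libraries. The summed green tissue markers (85.07) lay there between those of CZ1 and CZ2.

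By zone, Solyc02g061990 averaged 9.28 ± 6.65 over CZ, 6.01 ± 4.12 over PZ and 1.56 ± 0.536 over LP libraries (SD, n = 3). No LP library had more than 3 reads of it. CZ held 69 reads in all, 49 of them in CZ1, and LP held 7. Tested over libraries, the log2 fold change between LP and CZ of −1.68 (95% interval −2.93 to −0.43) did not pass (limma adjusted p = 0.241). Without CZ3 it became −2.47 and was called (limma adjusted p = 0.0491), while without CZ1 it was −1.23 (limma adjusted p = 0.659) and without CZ2 it was −1.34 (limma adjusted p = 0.621). The adjusted p was 0.0613 by edgeR and 0.109 by DESeq2, and its range over the alternatives was 0.0491 to 0.687. The 2 FD genes are related and the reads are short, so reads may be shared between them, and their separate values are uncertain to that extent.

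J was the gene of the MADS-box class in this set and is found on chromosome 11 from 3640857 to 3645966. CZ libraries held normalized counts of 20.48, 23.34 and 17.01. In the PZ it was at 28.53, 14.81 and 10.34. In the LP it was at 10.8, 9.66 and 12.02. All LP libraries were below all CZ libraries, and PZ1 held the highest value of the 9 while PZ3 lay within the range of the LP. The mean of J was 20.3 ± 3.17 for CZ, 17.9 ± 9.48 for PZ and 10.8 ± 1.18 for LP (SD, n = 3), and LP was 1.87-fold lower than CZ. The log2 fold change between LP and CZ was −0.84 (95% interval −1.65 to −0.04) and did not pass (limma adjusted p = 0.474). J and the FD gene Solyc02g083520 were the 2 of the 5 genes tested with every LP library below every CZ library, which held for 6.58% of all genes tested, while 15.5% had no overlap in either direction. Between PZ and CZ the log2 fold change of J was −0.28 (95% interval −1.08 to 0.53).

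**Figure D3:**
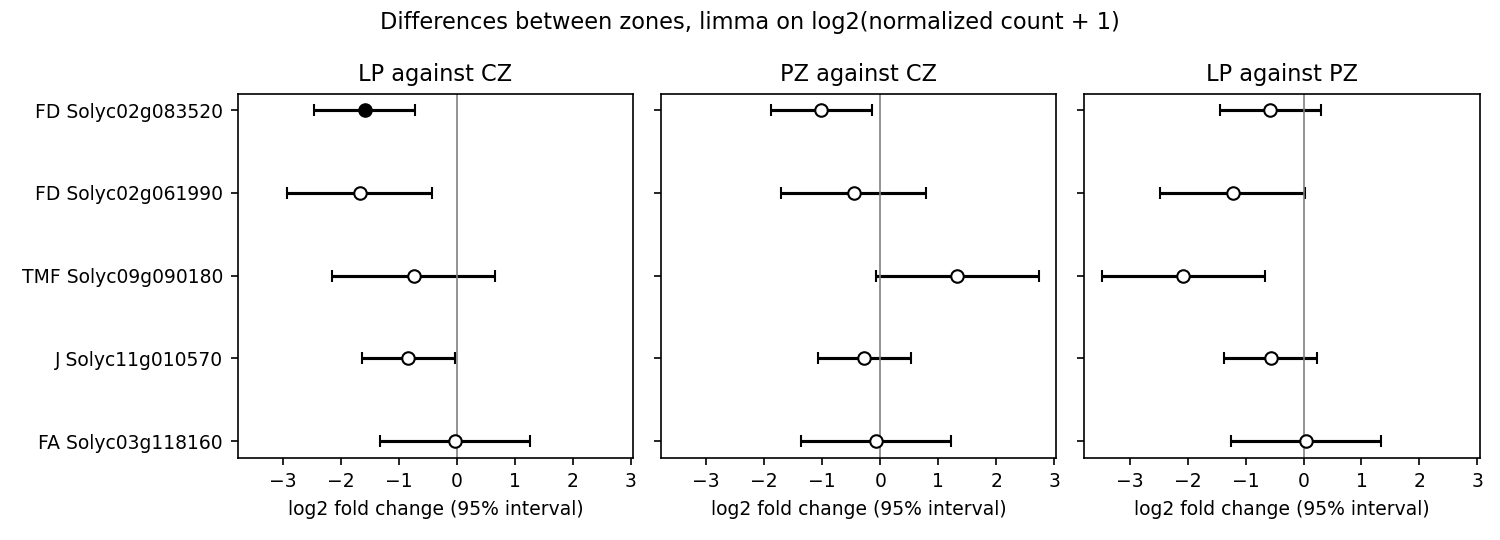
Log2 fold changes (horizontal axes) with 95% intervals from limma for the 5 genes tested, in the 3 comparisons between zones. The filled point is the single call, the FD gene Solyc02g083520 between LP and CZ at −1.59, and open points did not pass. Each comparison shares its libraries with the other 2.

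TMF, which acts to delay flowering, had its highest zone mean in the PZ, although no comparison of it passed the test. The gene belongs to the ALOG family of nuclear proteins and lies on chromosome 9 from 69713922 to 69714748. The CZ libraries held normalized counts of 4.62, 1.33 and 1.7. In the PZ they were 3.08, 11.85 and 9.65. In the LP they were 2.59, 0 and 1.09. PZ2 and PZ3 stood above all other libraries, and PZ1 lay below CZ1. In PZ2 the transcript took 25.4 reads per 100000 (Clopper-Pearson interval 14.5 to 41.3), and in LP2, where none was found, up to 3 reads or a normalized count of 1.81 are possible.

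TMF averaged 2.55 ± 1.80 over CZ, 8.19 ± 4.56 over PZ and 1.23 ± 1.30 over LP libraries (SD, n = 3). LP held 7 reads of TMF in all, 6 of them in LP1, and CZ held 20, of which 16 were in CZ1. The log2 fold change between LP and PZ was −2.07 (95% interval −3.47 to −0.67) and did not pass (limma adjusted p = 0.377, range over the alternatives 0.245 to 0.828), and it ran from −2.58 without PZ1 to −1.59 without LP2. TMF was the 1 of the 5 genes tested with all LP libraries below all PZ libraries, which held for 5.93% of all genes tested, and 11.4% had no overlap in either direction. TMF reached the minimum of 6 only in PZ2 and PZ3, so this separation is not independent of the filter. It rests on PZ1 at 3.08 (4 reads) against LP1 at 2.59 (6 reads). Their counting intervals, 1.87 to 17.5 and 2.26 to 13.4 reads per 100000, overlapped. Between PZ and CZ the log2 fold change was 1.33 (95% interval −0.08 to 2.73, limma adjusted p = 0.784), and it ran from 1.01 without PZ2 to 1.83 without PZ1. PZ1, the PZ library with little TMF, was the one with the most FD Solyc02g083520, J and STM transcripts among the PZ libraries.

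FA transcripts were found in every zone, at zone means that lay close together with wide intervals. Normalized counts were 7.79, 5.34 and 0.85 in CZ. They were 8.48, 4.44 and 0.69 in PZ. In LP they were 4.75, 4.22 and 2.18. The lowest values were those of CZ3 and PZ3, with 1 read each, the same libraries in which the FD gene Solyc02g061990 was low. The counting intervals of CZ1 (12.3 to 27.2 reads per 100000) and CZ3 (0.049 to 10.8) did not overlap. If each read stands for its own molecule, the difference between CZ1 and CZ3 exceeded counting error. FA averaged 4.66 ± 3.52 over CZ, 4.54 ± 3.90 over PZ and 3.72 ± 1.36 over LP libraries (SD, n = 3).

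For FA the log2 fold change between LP and CZ was −0.04, with a 95% interval from −1.33 to 1.26, an interval wide enough to hold a 2-fold change either way. The other comparisons gave −0.08 for PZ against CZ (95% interval −1.38 to 1.21) and 0.04 for LP against PZ (−1.25 to 1.34). The sign of each of these changed with single libraries left out. The gene, on chromosome 3 from 67109399 to 67111554, shares 286 bp with its neighbour Solyc03g118170.2, which had 79 reads in all. Whether the counting used strand is not given in the sources used here, so reads of this stretch cannot be told apart. No other of the 6 genes overlaps a gene of the table.

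**Figure D4:**
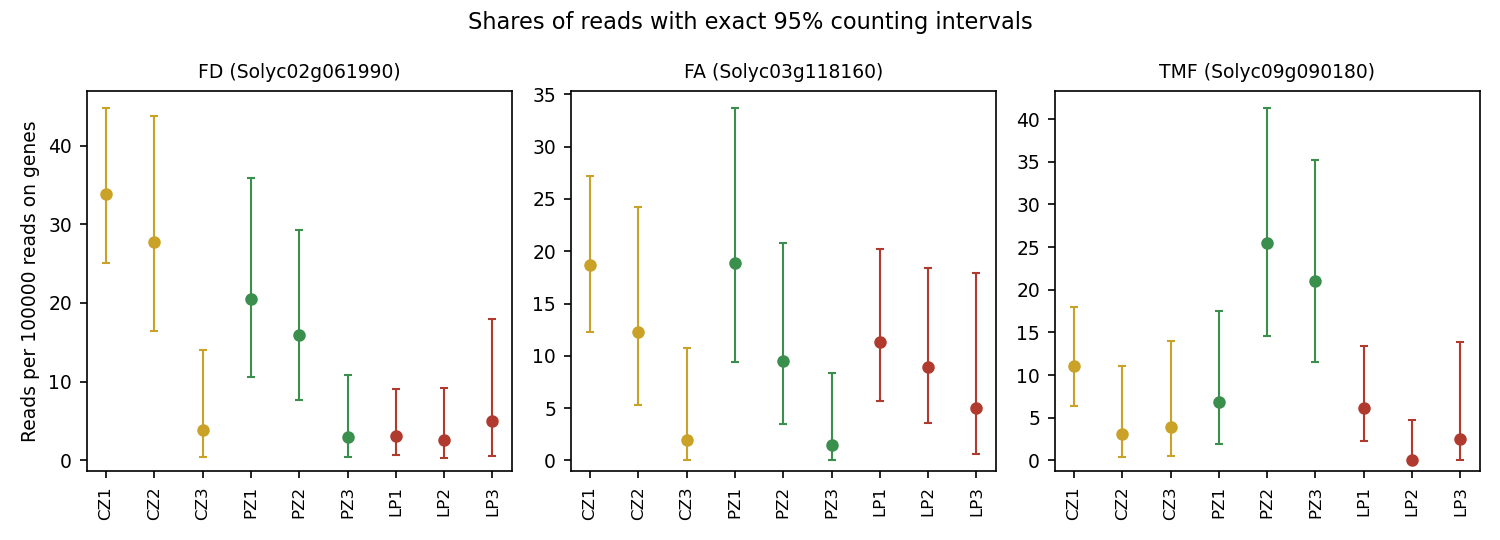
Reads per 100000 reads on genes (vertical axes) of the FD gene Solyc02g061990, FA and TMF in the 9 libraries (horizontal axes), with exact 95% Clopper-Pearson intervals that cover counting error only. For Solyc02g061990 and FA the lowest meristem libraries are CZ3 and PZ3, and for TMF the highest libraries are PZ2 and PZ3.

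SP, the antagonist of florigen, was at the edge of detection in all zones of these SP+ seedlings. The gene lies on chromosome 6 from 45971723 to 45974183. It had 0, 1 and 2 reads in the CZ libraries, 1, 0 and 0 in the PZ libraries, and 0, 0 and 1 in the LP libraries. These are normalized counts of 0, 0.67 and 1.7 in CZ, 0.77, 0 and 0 in PZ, and 0, 0 and 1.09 in LP. The 5 reads of 665240 amount to 0.752 reads per 100000 (Clopper-Pearson interval 0.244 to 1.75). By zone the share was 1.15 (0.237 to 3.36) in CZ, 0.532 (0.0135 to 2.96) in PZ and 0.463 (0.0117 to 2.58) in LP. All libraries were at or below 3 reads, and no order of the zones can be read from them. A difference in SP between zones was not detectable at this depth. In a fit of all genes with reads, without the minimum of 6, its log2 fold change between LP and CZ was −0.37 (95% interval −1.40 to 0.66).

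Across the comparisons, limma called 1 of the 5 genes tested in LP against CZ, 0 in PZ against CZ, where it called 0.321% of all genes tested, and 0 in LP against PZ, where it called 0.148%. At an unadjusted p under 0.05, limma counted 3, 1 and 1 of the 5 genes in these comparisons, against 9.52%, 6.4% and 7.07% of all genes tested. All of these were lower in the zone named first, which held for 3.51%, 2.2% and 3.41% of all genes tested. The groups of PZ and CZ libraries overlapped for all 5 genes, while 10.9% of all genes tested had no overlap there. edgeR called 0 in each comparison, with 3, 1 and 2 at that unadjusted p, and DESeq2 called 1, 0 and 0, with 2, 0 and 2. Log2 fold changes were below 0 for 5, 4 and 4 of the 5 genes, against 48.6%, 44.9% and 52% of all genes tested. The median log2 fold change of the 5 genes was −0.84 between LP and CZ, beside 0.02 over all genes tested, with a range of −1.68 to −0.04. It was −0.28 between PZ and CZ, beside 0.08, and −0.57 between LP and PZ, beside −0.04. These comparisons share libraries, so they are not independent of each other. The genes under that unadjusted p by limma were both FD genes and J between LP and CZ. Between PZ and CZ it was the FD gene Solyc02g083520, and between LP and PZ it was TMF. The study had chosen both FD genes on these samples by their change between zones. Solyc02g061990, TMF and FA reached the minimum of 6 only in CZ or PZ libraries, so their comparisons are not independent of the filter. Counts and medians that include the FD genes, TMF or FA are therefore not independent evidence.

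Over the 9 libraries, log2 values of J followed those of both FD genes, with a Pearson r of 0.82 with Solyc02g083520 and 0.84 with Solyc02g061990. The FD genes themselves had an r of 0.53, and Solyc02g061990 and FA one of 0.69. TMF stood apart, with an r between −0.16 and 0.28 with the other 4 genes tested. These values describe libraries that share their depth and their zone, and no test was made of them. Among 1242 genes with a mean normalized count of at least 6, the pattern most like that of J over the 9 libraries was that of Solyc02g024070.2 (r = 0.91), followed by Solyc01g103800.2 (r = 0.89). For the FD gene Solyc02g083520 these were Solyc11g068420.1 (r = 0.90), with a CZ mean of 40.8, a PZ mean of 34.7 and an LP mean of 28.5, and Solyc09g066500.2 (r = 0.88), with 36.4, 28.1 and 20.4. These 4 genes carry no name in the sources read.

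The study's list holds 10 further developmental genes beside the FD genes, also chosen on these samples. Of these, 1 rose (YABBY1) and 1 fell (STM) between CZ and LP by limma, and 0 were called in either other comparison. The 2 others that bear on flowering and floral organs, SVP and SPT, did not pass the test between LP and CZ. The study reported both as lower in LP. SVP, Solyc04g076280, a MADS-box factor of the same group as J, was at 6.92, 10.0 and 11.06 in CZ, at 6.17, 5.92 and 5.52 in PZ and at 2.16, 3.02 and 4.37 in LP. Its zones did not overlap, in the order CZ, PZ and LP, and the log2 fold change between LP and CZ was −1.32 (limma adjusted p = 0.384). SPT, Solyc02g093280, a factor known in Arabidopsis for the growth of the carpel, was at 6.35, 6.0 and 5.1 in CZ, 5.4, 4.44 and 2.76 in PZ and 0.43, 1.81 and 1.09 in LP. The LP libraries held 1, 3 and 1 reads of SPT, all at or below the limit of 3 reads. The log2 fold change of SPT between LP and CZ was −1.74 (limma adjusted p = 0.292).

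Genes of the protein families of these regulators or their partners were looked up among the gene descriptions that could be read. The descriptions cover only the start of the genome. The lookup gave 9 genes described as TERMINAL FLOWER 1, 14-3-3, MADS-box or bZIP proteins. Of these, 4 had any read and 0 reached the minimum for a test. The family name alone does not place them in the florigen complex. The TERMINAL FLOWER 1 gene Solyc01g009580 had 1 read in CZ1 and 1 in PZ3, and its neighbour in the family, Solyc01g009560, had none. The 14-3-3 gene Solyc01g010360 had 1 read, in PZ3. The bZIP gene Solyc01g008980 reached a normalized count of 4.83 in PZ3, and the bZIP gene Solyc01g008730 stayed at or below 1.7. At this depth these values do not show that the transcripts were absent.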

How the data were processed

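CEL-Seq, which reads the 3′ ends of barcoded transcripts, was run on 9 libraries of laser-cut tissue. The authors aligned the 36 bp inserts with Bowtie2 2.1.0 to tomato SL2.50 and the chloroplast genome and counted per gene with an HTSeq-based script, and their own tests used DESeq2 1.4.0. Neither the normalization nor the use of molecular identifiers in counting is given in the sources used here. The deposited unit is a signal, counts scaled by library. Dividing by the smallest step of each library returned whole reads for 100% of values (tolerance 0.0051).

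For the 4044 genes reaching 6 in some library, log2(normalized count + 1) was modelled by limma 3.58.1 (R 4.3.3) with a zone term and a variance trend. This scale understates changes of low genes. Calls required 1.5-fold and an adjusted p of 0.05 or less. Alternatives were edgeR 4.0.16 and DESeq2 1.42.0 on the reads, pseudocounts of 0.5 and 2, other filters and scalings, only 2 zones, a replicate block, no minimum fold and leaving out each library. Other settings of the spread were added after seeing the data. The steps were tested on simulated data. Intervals of read shares are exact Clopper-Pearson (scipy 1.17.1).

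The genes and lists were chosen with earlier results of these data known. The genes named are the 6 regulators, the study's developmental genes, relatives by description, markers, and, for each of the 2 regulators with the highest mean, the 2 genes of most similar pattern. Further flowering genes and gene sequences were not used, since the reference held neither these identifiers nor sequences.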

Additional observations from a re-analysis of the deposited data

How the results depend on the processing

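The single call among the flowering regulators between LP and CZ became 0 calls by edgeR, with no filter, with a minimum of 3 in 1 library, with a mean of at least 6 in 1 zone, and, added after seeing the data, without a variance trend or with the spread of each gene alone. Each of these added settings called 0 of all genes tested between LP and CZ. Leaving out 1 library gave 0 to 1 calls (0 without CZ2, LP1 or LP3, and without CZ3 the call passed from FD Solyc02g083520 to FD Solyc02g061990). The other comparisons gave 0 calls under every alternative run. Of the 22 alternatives 12 kept and 10 lost the call of Solyc02g083520, always with a log2 fold change below 0. For FA between LP and CZ the log2 fold change turned from −0.04 to 0.0077 with a pseudocount of 0.5, and between LP and PZ from 0.04 to −0.12 by edgeR, −0.19 by DESeq2 and −0.016 with a pseudocount of 2. Leaving out libraries gave FA −0.71 to 0.42 for LP against CZ, −0.75 to 0.61 for PZ against CZ and −0.65 to 0.59 for LP against PZ. For PZ against CZ it gave −1.25 to 0.20 for Solyc02g061990 and −0.66 to 0.033 for J.

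Same-numbered libraries deviated together weakly, and the reported fits did not pair them. Their deviations from the zone means correlated at 0.027 to 0.11 (2 of 9 pairs above 0.1), against −0.096 to 0.043 for other pairs. For 7 of 9 libraries the 2 highest correlations were both with libraries of the same number. PZ1 and LP3, which were not among them, still had their highest correlation with a library of the same number. With a replicate block the call of Solyc02g083520 stayed (limma adjusted p = 0.00956, 1 call). The block moved all-gene calls from 58 to 74 for LP against CZ, from 13 to 20 for PZ against CZ and from 6 to 11 for LP against PZ.

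Over all genes, the 58 calls between LP and CZ ranged from 0 to 74 over the alternatives, the 13 between PZ and CZ from 0 to 29 and the 6 between LP and PZ from 0 to 25. For LP against CZ they were 32 with no filter, 24 with the filter on zone means and 37 with TMM scaling. For PZ against CZ they were 29 by edgeR and 2 by DESeq2, and for LP against PZ 25 and 0. TMM scaling shifted the median log2 fold change of all genes from 0.08 to −0.14 for PZ against CZ and from 0.02 to −0.09 for LP against CZ. DESeq2 gave no adjusted p for TMF and FA between LP and CZ. TMF did not reach the minimum in the fit of LP and CZ alone, nor FA with the filter on zone means. SP reached no minimum and was fitted with no filter alone.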
